A study of Mus musculus with 38 samples.

Results

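The very broad H3K18ac domains of inflammatory mouse macrophages are stretches of chromatin in which lysine 18 of histone H3 carries acetyl groups over 10 kb or more. They were taken as the M1 H3K18ac peaks at least 10 kb wide that overlapped an M0 H3K18ac peak by 1 bp or more. The members were thus chosen by the called width in M1 and the overlap with M0, and the rule gave 2530 domains among 42237 M1 H3K18ac peaks, or 5.99% of the peaks and 33.5% of the bases in them (45.7 of 136 Mb). A further 82 M1 peaks of that width met no M0 peak and are not members. Because both H3K18ac peak lists chose the domains, their width, enrichment and M0 coverage are a description and were not tested.

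All cells were primary bone marrow-derived macrophages of C57BL/6 mice, either unstimulated (M0, 0 h) or stimulated with LPS (lipopolysaccharide, 5 ng/ml) and IFNg (interferon-gamma, 12 ng/ml), which drives them to the inflammatory M1 state. Chromatin immunoprecipitation with sequencing (ChIP-seq) of acetylation (H3K18ac) and lactylation (H3K18la) covered M0 and M1 after 24 h, with 1 library per mark and state. RNA was sequenced at 0, 4, 8, 16 and 24 h, with 4 libraries per group, and in a lactic acid (LA) arm in which LA followed LPS and IFNg by 4 h and of which the 24 h group (LA 24h) is used here. The dose of LA and the origin of the replicates (separate mice, cultures or preparations) are not given in the sources used here. The p-values therefore cover only the spread among these libraries, which may be technical, and no ChIP-seq value has a replicate.

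Acetylation of H3K18 is placed mainly by the coactivators p300 and CBP and marks active promoters and enhancers, while lactylation of the same lysine draws on lactate-derived acyl groups and competes for the same residue. Very wide stretches of histone acetylation often span clusters of enhancers around genes that define a cell type or answer strongly to a signal. In macrophages LPS signals through NF-kB and AP-1 factors, on chromatin that PU.1 and C/EBP factors have opened beforehand.

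The promoters of 6 genes that start inside a domain are shown as examples from domains that M0 acetylation covered little (Il1a), in part (Cxcl10), for the most part (Cebpb, 81.9%) or nearly in full (Lyl1, 99.4%). Gbp5 and Socs1 were added for their interferon elements after their values and motifs were seen, so the 6 say nothing of how common a motif is. Each runs from upstream of the gene start to 50 bases past it (RefSeq, GRCm38.p6), 5′ to 3′ on the gene's strand, with motif matches in capitals. The motifs searched, on both strands, were GAAA, any 2 bases and GAAA (an interferon response element), GGGA, any 2 bases and TTCC (NF-kB), TGANTCA (AP-1), GAGGAAGT (PU.1), TTGCNNAA (C/EBP) and TATAAA (the TATA box). Cxcl10 (chr5:92348840-92349139, minus strand) holds an interferon element, an NF-kB match and an AP-1 match in that order. Gbp5 (chr3:142496684-142496983, plus strand) holds an interferon element and an NF-kB match, both read on the opposite strand, and Socs1 (chr16:10785487-10785786, minus strand) 2 interferon elements that overlap. Il1a (chr2:129309923-129310222, minus strand) holds a TATA box and an AP-1 match, Cebpb (chr2:167688665-167688964, plus strand) a TATA box among 50 CpG dinucleotides, and Lyl1 (chr8:84701207-84701506, plus strand) none of the 6 motifs. Promoters of other domain genes, not printed, held a TATA box alone (Irf7, Fpr2, Acod1, Tnf) or none of the motifs (Stab1, Dusp1, Klf6, Tmem86a, Socs3). For Fth1, 1 promoter held a TATA box and another 2 C/EBP matches, and that of St6gal1 held 1 AP-1 and 1 C/EBP match.
Cxcl10: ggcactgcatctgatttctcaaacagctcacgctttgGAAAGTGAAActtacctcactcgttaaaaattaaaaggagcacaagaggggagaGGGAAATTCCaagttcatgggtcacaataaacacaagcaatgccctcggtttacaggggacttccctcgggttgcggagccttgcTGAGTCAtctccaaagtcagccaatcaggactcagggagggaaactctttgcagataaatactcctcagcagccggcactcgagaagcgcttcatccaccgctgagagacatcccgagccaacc
Gbp5: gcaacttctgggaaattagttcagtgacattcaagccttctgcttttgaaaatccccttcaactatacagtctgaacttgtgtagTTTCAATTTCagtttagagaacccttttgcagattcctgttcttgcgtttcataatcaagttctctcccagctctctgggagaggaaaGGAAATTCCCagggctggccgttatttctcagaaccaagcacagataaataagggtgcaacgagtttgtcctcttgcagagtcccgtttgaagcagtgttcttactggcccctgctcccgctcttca
Socs1: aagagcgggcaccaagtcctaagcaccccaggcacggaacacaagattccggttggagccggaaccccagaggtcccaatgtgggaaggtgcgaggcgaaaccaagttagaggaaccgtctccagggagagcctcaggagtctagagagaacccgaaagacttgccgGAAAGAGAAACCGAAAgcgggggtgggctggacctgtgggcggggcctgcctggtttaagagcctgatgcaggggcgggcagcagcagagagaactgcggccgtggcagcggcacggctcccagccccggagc
Il1a: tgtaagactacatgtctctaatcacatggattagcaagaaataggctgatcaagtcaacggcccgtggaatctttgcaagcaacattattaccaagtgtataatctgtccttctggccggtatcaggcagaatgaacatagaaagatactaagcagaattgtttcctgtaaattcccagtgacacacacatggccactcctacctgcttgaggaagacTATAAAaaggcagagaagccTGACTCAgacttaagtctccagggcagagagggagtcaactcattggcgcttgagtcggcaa
Cebpb: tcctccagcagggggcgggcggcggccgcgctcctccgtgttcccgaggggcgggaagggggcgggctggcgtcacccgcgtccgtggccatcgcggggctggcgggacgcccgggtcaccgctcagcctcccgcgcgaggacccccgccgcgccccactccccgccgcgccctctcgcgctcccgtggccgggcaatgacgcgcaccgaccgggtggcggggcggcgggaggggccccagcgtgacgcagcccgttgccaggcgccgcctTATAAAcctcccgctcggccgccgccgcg
Lyl1: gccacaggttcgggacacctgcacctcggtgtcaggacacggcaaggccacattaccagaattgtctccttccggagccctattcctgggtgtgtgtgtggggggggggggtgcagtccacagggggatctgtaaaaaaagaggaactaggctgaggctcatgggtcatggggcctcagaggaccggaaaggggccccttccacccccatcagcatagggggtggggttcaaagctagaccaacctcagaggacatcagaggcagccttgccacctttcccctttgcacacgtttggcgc

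Matches of this kind describe letters in a short window and not bound sites. Of 32851 RefSeq promoters, 3.44% held the interferon element and 1.47% the NF-kB motif. Among the 1488 promoters whose start lay in a domain the shares were 4.37% and 2.69%. For genes in the RNA table the shares were 3.41% and 1.56% over 11569 promoters and 5.38% and 2.47% over the 930 in domains. Among those 930, in the 179 promoters in domains of which M0 peaks covered 50% or less, 16 (8.94%) held the interferon element and 8 (4.47%) the NF-kB motif. In the 221 promoters in domains covered to more than 90% the numbers were 8 (3.62%) and 3 (1.36%). The AP-1 motif was found in 7.81% of all promoters and 9.48% of those in domains, PU.1 in 3.20% and 5.51%, C/EBP in 10.8% and 11.1%, and the TATA box in 13.6% and 12.2%. The median promoter in a domain had 8 CpG dinucleotides, against 7 over all promoters. Among genes in the RNA table both went the other way, with a TATA box in 10.6% of promoters in domains against 7.07% of all, and a median of 18 against 20 CpG dinucleotides.

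The domains also hold genes of microRNAs (miRNAs), short RNAs that repress messenger RNAs through bases 2 to 8, the seed. Of 1005 miRNA hairpins in the RefSeq table, 38 lay inside 33 domains. Mature forms from 3 of these domains, of miRNAs known from blood cells, are shown with the seed in capitals. They come from the 64.7 kb domain of Mir21a (chr11:86565588-86630336), the 14.5 kb domain of Mir142 (chr11:87745930-87760431) and the 13.2 kb domain of Mir23a, Mir27a and Mir24-2 (chr8:84196120-84209360). These 5 share no seed. M0 and M1 H3K18la peaks covered 37.4% and 79.6% of the Mir21a domain, 72.6% and 62.5% of the Mir142 domain and 71.8% and 53.3% of the Mir23a domain. The RNA table measured messenger RNA, so no level is given for these miRNAs.
mmu-miR-21a-5p: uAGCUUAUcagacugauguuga
mmu-miR-142a-3p: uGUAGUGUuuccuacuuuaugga
mmu-miR-23a-3p: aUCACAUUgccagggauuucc
mmu-miR-27a-3p: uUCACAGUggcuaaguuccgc
mmu-miR-24-3p: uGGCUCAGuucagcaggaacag

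The libraries behind these values were of like depth within a mark. Mouse reads numbered 36.6 M and 32.9 M for M0 and M1 H3K18ac and 21.8 M and 21.0 M for M0 and M1 H3K18la, per the authors' deposited table. The same table gives factors of 0.96 for M1 H3K18ac and 0.46 for M1 H3K18la, which are ratios of spike-in reads, M1 over M0 (141688 over 310066 for H3K18la), so a factor below 1 means fewer spike-in reads and not less of the mark. M1 H3K18la thus had more mouse reads per spike-in read than M0 H3K18la. Whether the peak calls used the factors is not given in the sources used here, so coverage by peaks is not a measure of the amount of the mark. M1 had fewer H3K18la peaks than M0 (16139 against 21885, covering 25.8 and 34.8 Mb) and slightly more H3K18ac peaks (42237 against 41493, covering 136 and 112 Mb). Reads in listed genes numbered 60.6 to 103.9 M per RNA library. All 8 macrophage markers were listed, and their summed level was 17797 to 20298 RPKM (reads per kilobase of gene, scaled to a size for each library in the deposited values) over the 0 h libraries and 35588 to 47840 RPKM at 24 h. Such a sum follows its most abundant members and does not give the course of each marker. Of the 8, Fcgr1 and Itgam had means of 76.0 and 50.8 RPKM at 0 h. Neutrophil markers (4 of 7 listed) summed to 10.1 to 15.6 RPKM at 0 h and 21.7 to 34.4 RPKM at 24 h, and their part in the results was not tested. Of the other types, 2 of 6 dendritic markers stayed at or below 0.45 RPKM, 1 of 8 lymphocyte markers (Cd4) at or below 0.771 RPKM and 5 of 6 stromal and endothelial markers at or below 0.895 RPKM in sum, at 0 h and 24 h, while none of 6 erythroid and mast cell markers was listed. In bulk samples, fewer cells of a type and less RNA per cell cannot be told apart.

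The domains were 10002 to 148248 bp wide, with a median of 14512 bp and quartiles of 11898 and 20309 bp. The fold enrichment in the authors' peak list ran from 2.92 to 13.6, with a median of 5.16, and was 3.79 in the median of the 27208 narrower M1 H3K18ac peaks that also met an M0 peak. M0 H3K18ac peaks covered 1.49% to 100% of a domain, with a median of 74.1%. In 1040 domains they came from 1 M0 peak and in 1490 from 2 or more, with up to 13 M0 peaks under 1 M1 domain. An M0 peak that was itself 10 kb or wider met 1132 domains (44.7%), and the widest M0 H3K18ac peak measured 81936 bp. The lists held 1678 such peaks in M0 and 2612 in M1, and the domains were chosen for their width in M1. The domains just inside the width limit measured 10002, 10003 and 10005 bp, of which 1 lay over Polr3gl and 1 over Zranb3, and the peaks just outside measured 9999 bp at Mitf, 9998 bp at Anxa6 and 9991 bp at Atg7. The X chromosome held 3 domains (0.119%), against 467 (1.72%) of the narrower shared peaks.

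The widest domain covered 148.2 kb (chr8:126740595-126888842), with the starts of the transcripts A630001O12Rik, Gm31718 and Gm45805 and no protein-coding gene body. M0 peaks, the widest of them 75545 bp, covered 95.2% of it. The 80.5 kb domain of Irf2bp2 (chr8:126521161-126601678), a corepressor of interferon regulatory factors, lay at lower coordinates of the same chromosome and was covered to 79.7%. Domains of 117.4 kb on chromosome 17 (chr17:84050363-84167800) and 71.2 kb on chromosome 1 (chr1:191213646-191284834) likewise held no protein-coding gene body and were covered to 96.5% and 98.3%. A domain of 113.9 kb (chr6:89359734-89473640) ran over Plxna1, a semaphorin receptor gene, and Chchd6, a mitochondrial cristae gene, 1 of 86.4 kb over Gramd1b, a sterol transporter gene (chr9:40499476-40585918), and 1 of 77.9 kb over Zmiz1, a transcriptional coactivator gene (chr14:25457303-25535157). Fth1, which encodes the heavy chain of the iron store ferritin, lay in a domain of 84.0 kb (chr19:9911290-9995251) covered to 94.0%.

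Cebpb, which encodes the C/EBP-beta factor of inflammatory gene transcription, started in a domain of 70.5 kb (chr2:167679740-167750198) that 5 M0 peaks covered to 81.9%. The next domain towards higher coordinates ran for 97.7 kb (chr2:167751446-167849172) with 7 transcript starts and no protein-coding gene body, and 7 M0 peaks covered 54.3% of it. H3K18la coverage was larger in M1 in both, going from 18.6% to 41.2% of the Cebpb domain and from 21.4% to 44.9% of its neighbour. The 87.0 kb domain over the body of Nr3c1, the glucocorticoid receptor gene (chr18:39483752-39570797), was the least covered of the 12 widest. M0 H3K18ac covered 20.5% of it in 5 peaks, none over 4830 bp, and H3K18la 5.28% in M0 and 23.9% in M1.

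**Figure D1:**
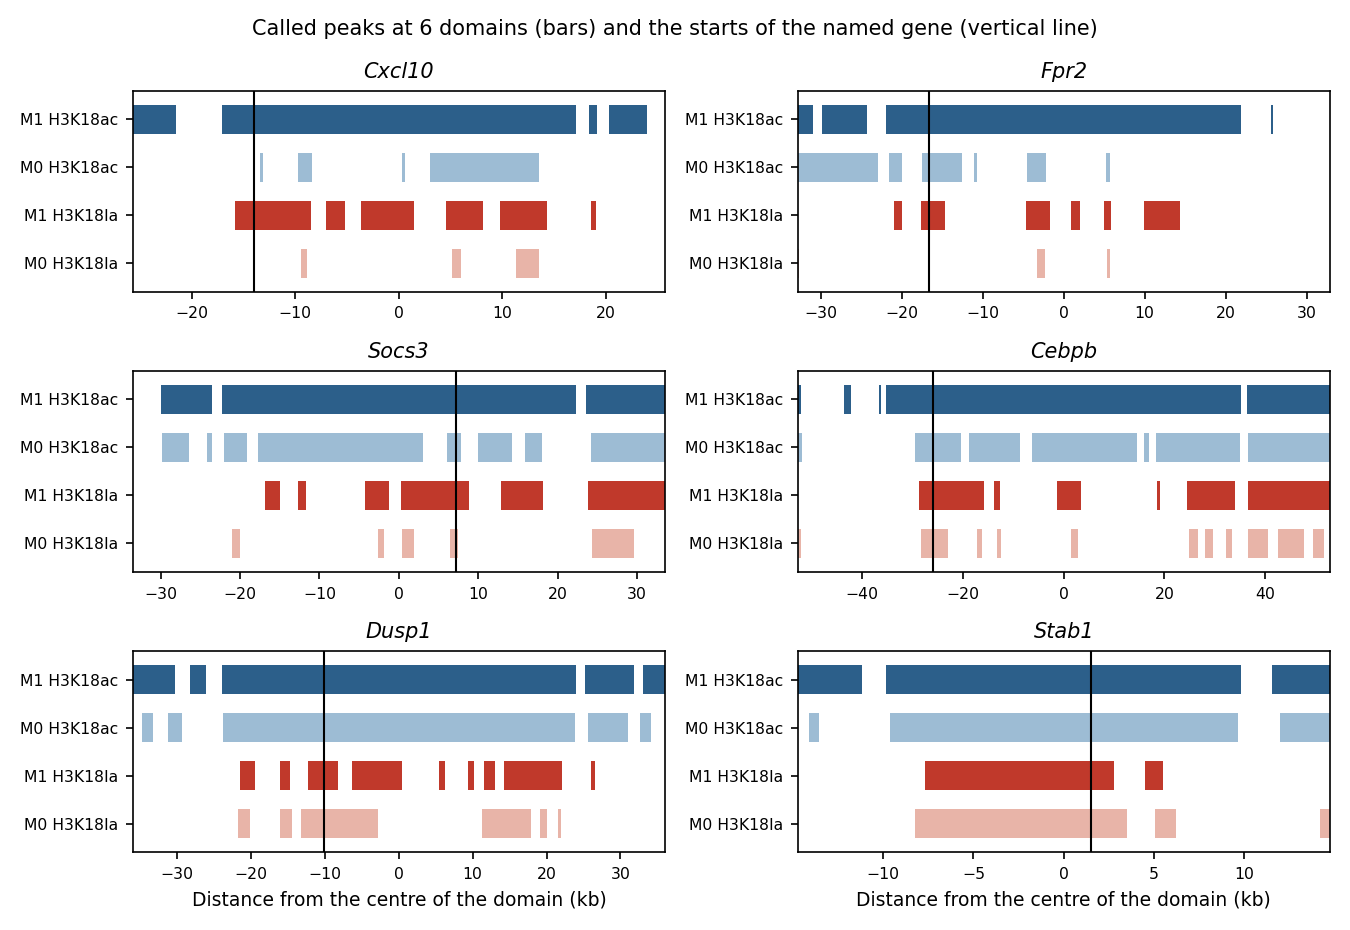
Peaks of the 4 lists (coloured bars) at 6 domains, each centred on its domain, with distance in kb on the x axis and the starts of the named gene as a vertical line. M0 H3K18ac forms 4 separate peaks over 36.4% of the Cxcl10 domain, most of it in 1 of them on the side away from the gene start, and 5 peaks over 22.2% of the Fpr2 domain, but 1 peak across nearly all of the Dusp1 (99.4%) and Stab1 (98.1%) domains.

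At the other end of M0 coverage, the 24.9 kb domain over Msh3, a mismatch repair gene (chr13:92319439-92344328), held 1 M0 peak of 372 bp (1.49%), and H3K18la went from 0% to 27.3% there. The 35.4 kb domain chr8:46309975-46345352 was covered to 1.59% and the 21.5 kb domain over Clec16a (chr16:10662388-10683918) to 2.08%, with no H3K18la in M0 and 9.65% and 3.79% in M1.

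H3K18la, which the selection did not use, lay in most domains. An M1 H3K18la peak met 2187 domains (86.4%) and an M0 H3K18la peak 2205 (87.2%), 1980 had both, 207 had it in M1 only, 225 in M0 only and 118 in neither. Wide regions meet a peak more often, so coverage is the fairer measure. H3K18la covered 22.8% of the bases of the domains in M0 and 23.7% in M1. In the narrower shared peaks it covered 29.4% in M0 and 17.8% in M1. The domains thus had close to equal coverage in both states while the narrower peaks had less in M1, in lists that hold fewer M1 than M0 H3K18la peaks in all. These are shares of called bases, while M1 H3K18la had more mouse reads per spike-in read than M0. With only H3K18la peaks of a -log10 q of 5 or more, coverage of the domains was 20.5% in M0 and 19.2% in M1, so that its direction turned, and that of the narrower peaks 25.8% and 12.3%. With 1 library per mark and state, none of these differences could be tested.

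Coverage by M1 H3K18la grew with width among the domains while coverage by M0 H3K18la did not. Width here is that of the M1 H3K18ac peak, which the selection used, so this is a description. No values at the stricter q are given for these classes. From 10 to 15 kb (1336 domains) M0 and M1 H3K18la covered 22.7% and 19.9% of the bases, from 15 to 30 kb (968 domains) 23.1% and 23.9%, and at 30 kb or more (226 domains) 22.3% and 29.3%. Among narrower shared peaks M1 coverage was below M0 coverage in each of the 4 width classes, most in peaks under 1 kb with 36.1% in M0 and 11.8% in M1.

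**Figure D2:**
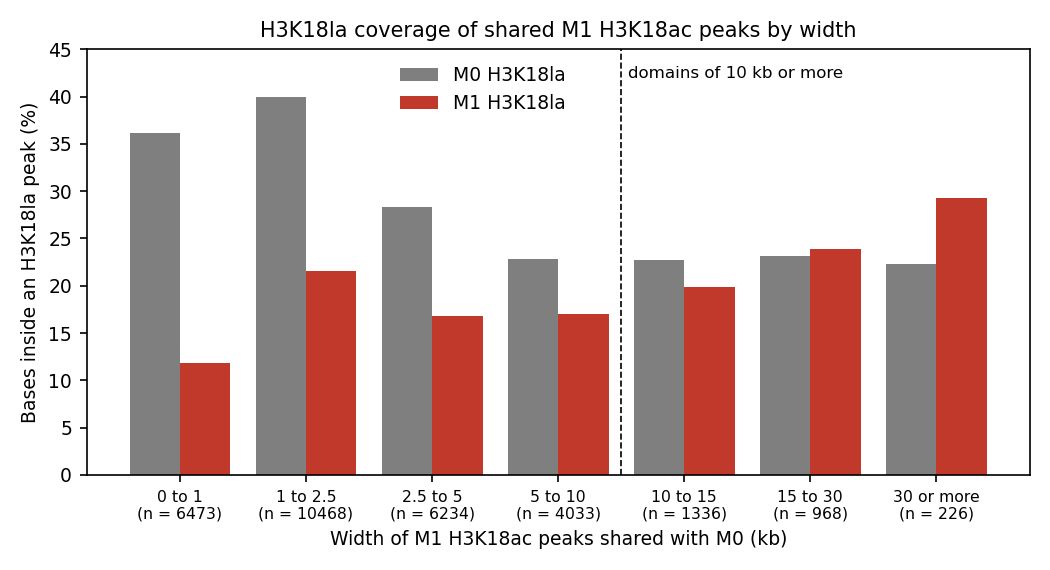
Bases of M1 H3K18ac peaks shared with M0 that lay inside an H3K18la peak (y axis, %), by width of the H3K18ac peak (x axis, kb), in M0 (grey) and M1 (red). M1 bars lie below M0 bars up to 15 kb and above them from 15 kb, and at 30 kb or more M1 reaches 29.3% against 22.3% in M0.

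Across the 2530 domains the share covered by H3K18la was higher in M1 in 1205, lower in 1207 and equal in 118. These groups differed in their M0 acetylation. Where M0 H3K18ac covered up to 25% of the domain (262 domains), H3K18la went from 2.99% of bases in M0 to 15.4% in M1, higher in 201 domains and lower in 20. In the class of 25 to 50% (403 domains) it went from 9.63% to 20.5%, and in that of 50 to 75% (631 domains) from 18.5% to 23.7%. From 75 to 90% (586 domains) it was 29.1% in M0 and 27.5% in M1. Above 90% (648 domains) it was 35.9% and 25%, higher in 127 domains and lower in 514. The median difference over domains, M1 minus M0, ran from 8.98 percentage points in the least covered class through 6.79, 1.71 and -3.4 to -11.3 points in the most covered one. Over all 2530 domains the M0 H3K18ac share and the H3K18la difference had a Pearson correlation of -0.51 and a Spearman correlation of -0.56, as a description, since every point comes from the same 4 libraries and M0 H3K18ac and M0 H3K18la peaks tend to lie together.

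**Figure D3:**
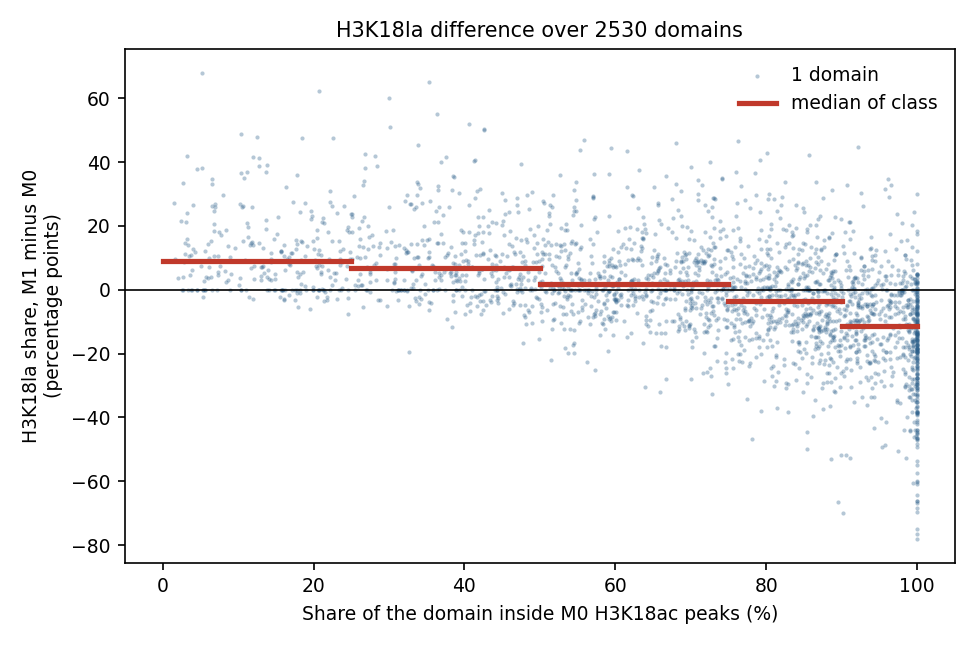
H3K18la share in M1 minus M0 (y axis, percentage points) against the share of the domain inside M0 H3K18ac peaks (x axis, %), 1 point per domain, with the median of each class as a red line. The class medians fall from 8.98 points at up to 25% to -11.3 points above 90%.

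The largest M1 H3K18la share, 95.5%, was in a 15.8 kb domain (chr7:28371142-28386982) with the starts of Zfp36, whose product destabilises cytokine messenger RNAs, and Plekhg2, which had 97.1% in M0. The next were Zeb2, a macrophage lineage factor gene (92.8% in M1, 87.7% in M0, chr2:45103131-45118615), and Zbtb7a, a transcriptional repressor gene (87.4% in M1, 52.7% in M0, chr10:81133078-81143763). Of the 343 domains with no M1 H3K18la peak the widest measured 42.3 kb (chr18:39693352-39735641) and lay near the Nr3c1 domain on chromosome 18, with M0 H3K18ac over 18.9%.

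Within a domain H3K18la was called most at the centre. In 10 equal parts of each domain, mean M1 H3K18la coverage was 9.53% and 9.08% at the edges and 28.0% and 29.4% in the central parts, and M0 H3K18la ran alike from 11.3% to 28.8%. M0 H3K18ac covered 52.9% and 51.8% of the edge parts and 73.9% and 74.1% of the central ones. Within 1 kb of the 1487 distinct gene starts in domains, which took up 2.5 Mb, M0 and M1 H3K18la covered 59.2% and 58.2% of bases, against 20.7% and 21.7% of the rest of the domains. M0 H3K18ac covered 85.0% near starts and 67.5% elsewhere.

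Gene starts lay in 962 domains, while 1568 (62.0%) held none of the RefSeq table, and 1739 domains overlapped the body of a protein-coding gene. Of 11184 genes in the RNA table, 9057 had a known start and 749 of these (8.27%) started in a domain. Those 749 genes lay in 695 domains, 65 of which held 2 or more, up to 4. The authors listed almost only genes that passed their own test across groups, and 723 of the 749 reached 1 RPKM in 4 libraries and entered the limma test, in which a gene counts as changed at an adjusted p under 0.05. At 0 h the median of the 723 genes was 13.7 RPKM, against 6.34 RPKM for all 9942 genes tested, and at 24 h 16.7 against 6.14 RPKM.

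Of the gene lists, 57.1% of interferon response genes with a known start (12 of 21), 62.5% of lysosome and lipid genes (10 of 16), 55.0% of NF-kB and MAPK feedback genes (11 of 20), 52.2% of lineage factors (12 of 23) and 50% of metabolism and hypoxia genes (9 of 18) started in a domain, beside 8.27% of all listed genes. The shares were smaller for inflammatory mediators (36.8%, 7 of 19), immediate early genes (30.8%, 4 of 13), receptors (30%, 6 of 20), H3K18 acyl enzymes (25%, 4 of 16) and cytoskeleton genes (23.5%, 4 of 17). None of 10 ribosomal protein genes and none of 10 mitosis genes did. The lists were drawn up with macrophage biology and earlier results in view, and these shares are a description.

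RNA of the domain genes was more often higher than lower after stimulation. At 4 h, 381 of 723 (52.7%) were higher and 274 (37.9%) lower than at 0 h, where 42.5% and 42.7% of all tested genes were. By at least 2-fold, 215 (29.7%) were higher and 127 (17.6%) lower, against 13.8% and 11.5% of all. At 24 h, 395 (54.6%) were higher and 190 (26.3%) lower, against 39.9% and 37.3%, and by at least 2-fold 131 (18.1%) were higher and 20 (2.77%) lower, against 6.27% and 5.37%. The median log2 fold change, on the log2(RPKM + 1) scale used throughout, was 0.26 at 4 h and 0.24 at 24 h, against 0.00 and 0.02 over all genes.

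This split depends on the scaling. The library sizes behind the deposited RPKM, recovered with the whole reads, were not plain read totals. In 0h replicate 1 the size was 85829723, with 64833648 reads in listed genes. In LA 24h replicate 1 it was 45810096, with 60633872 reads in listed genes. The rescaling puts the reads in listed genes in place of these sizes. When each library was rescaled by its reads in listed genes, domain genes had medians of -0.22 at 4 h and -0.17 at 24 h and all genes -0.44 and -0.38. At 4 h 273 domain genes then rose against 376 that fell, and at 24 h 215 against 367, so 42.1% and 36.9% of called domain genes were higher in place of 58.2% and 67.5%. Over all genes those shares were 26.5% and 20% in place of 49.9% and 51.6%. Without the minimum on RPKM all 749 domain genes gave 389 higher and 286 lower at 4 h and 408 higher and 196 lower at 24 h.

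The change of RNA differed along M0 coverage of the domain, and so did the level before stimulation. From the least to the most covered class the median at 0 h was 3.29, 8.23, 12.4, 17.2 and 18.7 RPKM. At 4 h it was 30.5, 24.4, 17.2, 17.4 and 14.2 RPKM. The part of the starting level in the size of the change was not tested. In domains covered up to 25% by M0 H3K18ac, 35 of 39 genes (89.7%) were higher at 4 h and 2 lower, with a median log2 fold change of 2.18. From 25 to 50% it was 72 of 99 (72.7%) and 20, with a median of 0.99, and from 50 to 75% 120 of 206 (58.3%) and 65, with a median of 0.38. From 75 to 90% 93 of 208 (44.7%) rose while 98 fell, the median being -0.06, and above 90% 61 of 171 (35.7%) rose while 89 fell, the median being -0.23. The order of the classes was the same at 24 h with smaller steps, the medians being 0.68, 0.54, 0.30, 0.19 and 0.07. Under the rescaling the medians were 1.84, 0.60, -0.10, -0.56 and -0.64 at 4 h and 0.20, 0.18, -0.13, -0.23 and -0.31 at 24 h, in the same order but with the sign turned in the class of 50 to 75% at 4 h and in the 3 most covered classes at 24 h. Across the 723 genes M0 share and log2 fold change had a Pearson correlation of -0.36 at 4 h and -0.26 at 24 h. As the domains were chosen in M1, these values are a description of genes in M1 domains.

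**Figure D4:**
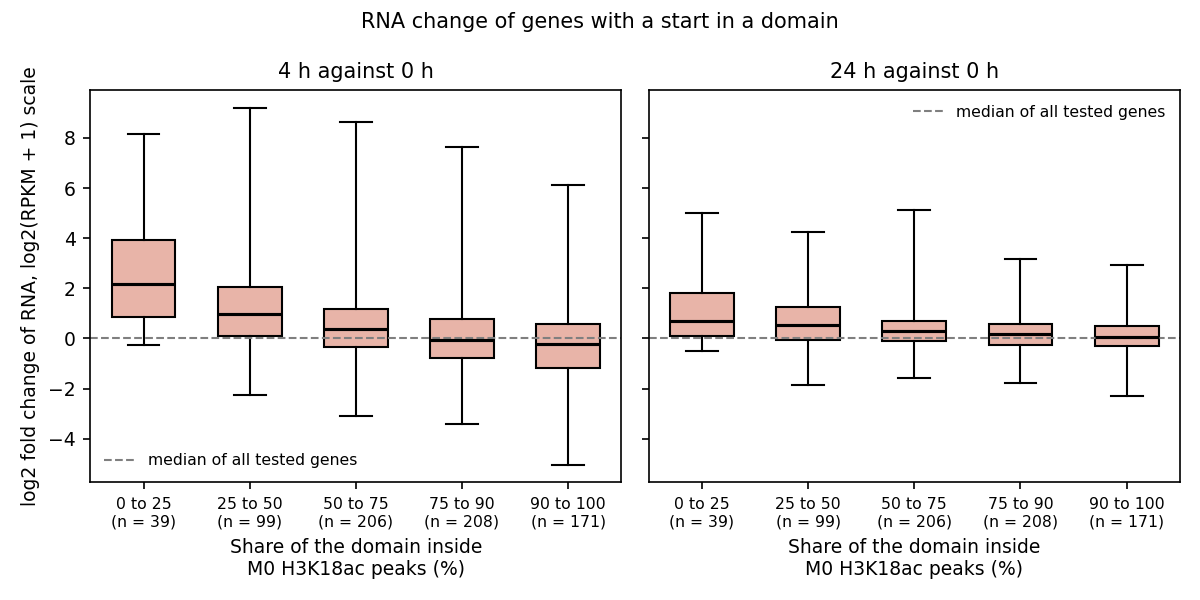
log2 fold change of RNA (y axis, log2(RPKM + 1) scale) of the 723 tested genes with a start in a domain, by the share of the domain inside M0 H3K18ac peaks (x axis, %), at 4 h (left) and 24 h (right) against 0 h; boxes are quartiles, lines medians and whiskers the full range, and the dashed line is the median of all tested genes. Medians fall from 2.18 to -0.23 at 4 h and from 0.68 to 0.07 at 24 h.

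Genes in the widest domains were rarely lower at 24 h. Of 93 genes in domains of 30 kb or more, 72 (77.4%) rose and 6 (6.45%) fell against 0 h, the median being 0.66, and under the rescaling 52 were higher and 25 lower. In domains of 10 to 15 kb, 157 of 329 (47.7%) were higher and 98 (29.8%) lower. Over all tested genes 39.9% were higher at 24 h and 37.3% lower. Genes in domains whose H3K18la share was larger in M1 than in M0 were higher at 24 h in 251 of 381 cases (65.9%) and lower in 65. Those in domains with a smaller share lay near the shares over all genes, with 144 of 341 (42.2%) higher and 124 (36.4%) lower. Under the rescaling these counts became 148 higher and 150 lower for a larger share and 67 higher and 216 lower for a smaller one. At 4 h the same groups had medians of 0.72 and -0.28, and under the rescaling 0.25 and -0.66.

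Inflammatory mediators with a start in a domain were Cxcl10, Il1a, Il1rn, Acod1, Ccl3, Ccl9 and Tnf. All 7 rose at 4 h, with a median of 7.64, and all 7 at 24 h, with a median of 1.57, also under the rescaling. For this list and those below, the shares over all tested genes were 42.5% higher and 42.7% lower at 4 h. At 24 h they were 39.9% and 37.3%. Under the rescaling 2329 of 10044 genes rose and 6448 fell at 4 h, and 1680 rose and 6701 fell at 24 h. Cxcl10, a chemokine that draws activated T cells through CXCR3, was at 4.81, 5.85, 5.76 and 4.32 RPKM in the 4 libraries of 0 h. It stood at 3496, 3803, 3406 and 3584 RPKM at 4 h and at 18, 12.6, 19.5 and 20.1 RPKM at 24 h. The 24 h libraries thus lay far below those of 4 h yet all above those of 0 h (log2 fold change 9.18, SE 0.13, at 4 h and 1.57, SE 0.13, limma adjusted p = 5.8e-12, at 24 h), while its 34.3 kb domain (chr5:92345726-92380000) had 65.6% of its bases under H3K18la in M1 after 24 h and 10.6% in M0.

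Il1a, the gene of the alarm cytokine interleukin-1 alpha, lay in the least covered domain of the named genes, with M0 H3K18ac over 7.33% of 19.9 kb (chr2:129304601-129324494). It went from 0.112, 0.129, 0.131 and 0.171 RPKM at 0 h to 341, 308, 320 and 318 RPKM at 4 h and 4.94, 5.59, 5.73 and 8.40 RPKM at 24 h. Its low start makes the fold change depend on the pseudocount (log2 8.15 at 4 h with a pseudocount of 1 and 10.42 with 0.1), but no library of 0 h came near the others. Il1rn, which encodes the antagonist of the same receptor, rose by 7.45 (SE 0.11) at 4 h and 4.24 (SE 0.11) at 24 h in a domain where H3K18la went from 3.04% to 34.5%.

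Acod1, whose enzyme produces the antimicrobial metabolite itaconate, was at 8.97, 7.59, 6.29 and 6.76 RPKM at 0 h, 3405, 3290, 3231 and 3321 RPKM at 4 h and 283, 302, 322 and 268 RPKM at 24 h. Every stimulated library exceeded every unstimulated one (5.14, SE 0.08, limma adjusted p = 6.3e-31 at 24 h). Its domain (29.1 kb, chr14:103022860-103051933) met 5 M0 peaks that covered 57.2%, and H3K18la went from 6.2% to 42.6% of it. The chemokine gene Ccl12, in a domain of 54.7 kb on chromosome 11, rose by 4.89 (SE 0.13) at 24 h, M0 H3K18ac covered 51.2% of that domain, and its near copies among chemokine genes may share reads. The formyl peptide receptor genes Fpr1 and Fpr2, which sense bacterial peptides, share a domain of 43.8 kb (chr17:17882608-17926399) covered to 22.2% in M0. Fpr2 went from 1.34, 1.39, 0.838 and 0.901 RPKM at 0 h to 60, 70.6, 63.2 and 76.9 RPKM at 24 h, and Fpr1 from 1.53 ± 0.337 to 81.1 ± 20.9 RPKM (SD, n = 4). As near copies of each other, the 2 genes may share reads.

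All 11 NF-kB and MAPK feedback genes of the domains rose at 4 h (median 4.62) and at 24 h (median 1.65), and under the rescaling 11 rose at 4 h and 9 at 24 h with none lower. Socs3, which inhibits cytokine receptors of the JAK and STAT pathway, was at 0.733, 0.866, 0.785 and 0.946 RPKM at 0 h and at 55.8, 57.7, 63.2 and 68.9 RPKM at 24 h (5.09, SE 0.07, limma adjusted p = 4.3e-33). Its 44.7 kb domain (chr11:117939789-117984449) was covered to 70.9% in M0, and H3K18la went from 9.54% to 44.0%. Dusp1, a phosphatase that switches off MAP kinases, stood at 3.24, 2.91, 3.07 and 2.84 RPKM at 0 h, 144, 168, 158 and 159 RPKM at 4 h and 34.8, 25.5, 29.4 and 30.6 RPKM at 24 h. Unlike the Cxcl10 domain, the 48.0 kb domain of Dusp1 was almost complete in M0 (99.4%, 1 peak), with H3K18la over 45% in M0 and 52.8% in M1. Nfkbia, the gene of the NF-kB inhibitor alpha, rose by 2.19 (SE 0.07) at 24 h, Traf1 by 2.14, Tnfaip3, the gene of the A20 inhibitor, by 1.86 and Zfp36 by 1.47.

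Of 12 interferon response genes in domains, all rose at 4 h (median 5.23) and 10 at 24 h (median 1.00), with 7 higher and 1 lower at 24 h under the rescaling. Irf7, the interferon-inducible regulatory factor that amplifies type I interferon, changed most at 24 h, from 33.3, 40, 46.9 and 38.3 RPKM at 0 h to 588, 529, 590 and 687 RPKM (3.89, SE 0.08, limma adjusted p = 2.5e-28). Its domain was narrow for the set (11.6 kb, chr7:141262377-141273948) and covered to 21.9% in M0. Gbp5, a guanylate-binding protein gene of pathogen defence, peaked at 173, 196, 194 and 190 RPKM at 4 h from 0.732, 1.02, 1.22 and 0.967 RPKM at 0 h and was down to 3.11, 2.53, 3.04 and 1.79 RPKM at 24 h, still above every 0 h library. Its 11.3 kb domain (chr3:142490407-142501664) nevertheless had H3K18la over 68.0% in M1 and 5.82% in M0. Socs1, a further JAK inhibitor, followed the same course from 0.429 ± 0.199 to 61.5 ± 8.03 and 3.73 ± 0.976 RPKM (SD, n = 4). Its 65.0 kb domain met 8 M0 peaks, which covered 27.2% of it. Oasl1 rose by 2.29 (SE 0.12) and Ifi205, of the p200 DNA sensor family, by 2.80 (SE 0.10) at 24 h, and both families have close copies among which reads may be split. Gbp7 and Stat3, at 0.11 and 0.08, did not pass at 24 h.

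Lineage and enhancer-binding factors were mixed. Of 12 in domains, 6 rose and 5 fell at 4 h and 8 rose and 4 fell at 24 h, with a median of 0.26, and 4 rose and 5 fell at 24 h under the rescaling. Cebpb went from 5.40, 4.72, 4.75 and 5.65 RPKM at 0 h to 62.7, 44.4, 42.6 and 44.2 RPKM at 4 h and 46.5, 26.0, 29.8 and 63.5 RPKM at 24 h (2.71, SE 0.20, limma adjusted p = 1.7e-13). The 24 h libraries were spread widely but none came near 0 h. Klf2, a factor that restrains inflammatory genes, fell by 1.57 at 4 h and rose by 1.98 (SE 0.11) at 24 h, and Nr1h3, the liver X receptor gene of cholesterol efflux, rose by 1.53 at 24 h. Bach1, Ikzf1, Zeb2 and Runx1 fell at 24 h, by 0.84, 0.55, 0.43 and 0.29 on the log2 scale. Among immediate early genes Fos, Junb, Atf3 and Btg1 started in a domain and all 4 rose at 24 h, by 2.92, 1.84, 1.28 and 1.33, also under the rescaling. At 4 h 3 of them rose, and Btg1 (0.10, and -0.41 under the rescaling) did not.

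Metabolism and hypoxia genes in domains numbered 9. Of these 8 rose at 4 h and all 9 at 24 h (median 1.92), and under the rescaling 6 rose and 1 fell at 4 h and 7 rose at 24 h. Fth1 was at 14407, 13676, 12432 and 16366 RPKM at 0 h and at 90720, 71554, 71189 and 128857 RPKM at 24 h (2.63, SE 0.13, limma adjusted p = 1e-17), with all 24 h libraries above all of 0 h, and processed copies of Fth1 in the genome make its exact level uncertain. Slc2a1, the glucose transporter GLUT1 gene, rose by 2.40 (SE 0.09), Pfkfb3, an activator of glycolysis, by 2.29 (SE 0.08), Hif1a, the hypoxia factor gene, by 1.98, Hk2 by 1.58 and Ldha, which makes lactate, by 1.14.

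Of 10 lysosome and lipid genes in domains 2 rose and 7 fell at 4 h (median -0.44), and under the rescaling 9 fell. At 24 h 4 rose and 2 fell with a median of 0.03, which under the rescaling became 2 and 7 with a median of -0.46. Most tested genes fell at 24 h under the rescaling as well (6701 of 10044, median -0.38), so that shift is not particular to this list. Psap, the gene of the lysosomal activator saposin, fell by 1.37 (SE 0.09) at 4 h. Ctss, a cathepsin gene of antigen processing, was at 1097, 1081, 1174 and 1200 RPKM at 0 h and at 2159, 2191, 2176 and 3146 RPKM at 24 h, where 1 library stood apart upward and the groups did not overlap. Of 6 receptor and adhesion genes 4 rose and 2 fell at 24 h (2 and 2 under the rescaling). Fcgr1, the high-affinity IgG receptor gene, rose by 2.78 (SE 0.07) and Itgam, the CD11b gene, by 1.31 (SE 0.08), while Ccr2, the monocyte chemokine receptor gene, fell by 1.20 (SE 0.14). Of the 4 cytoskeleton genes 2 rose and 2 fell at 24 h (1 and 2 under the rescaling), Gsn, an actin-severing protein gene, falling by 0.26 (SE 0.05). Among the enzymes and readers of H3K18 acyl groups Brd2, Kat2a, Kat2b and Hdac7 started in a domain. Brd2, a reader of acetylated histones, rose by 0.67 (SE 0.08) at 24 h, and the acetyltransferase genes Kat2a and Kat2b each fell by 0.50.

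The 4 named genes that fell most at 4 h sat in domains of which M0 H3K18ac covered 89.2% to 99.4%. Lyl1, a helix-loop-helix factor gene of blood cells, was at 45.5, 48.8, 49.8 and 51.6 RPKM at 0 h, 0.754, 0.513, 0.714 and 0.685 RPKM at 4 h and 17.7, 15.8, 16.8 and 21.0 RPKM at 24 h. All 24 h libraries lay between those of 4 h and 0 h (-4.91, SE 0.08, at 4 h and -1.41, SE 0.08, limma adjusted p = 5.5e-17, at 24 h). M0 H3K18ac covered 99.4% of its 11.2 kb domain (chr8:84697953-84709122), and H3K18la was over 89.9% in M0 and 29.3% in M1. Stab1, a scavenger receptor gene of resident-type macrophages, was at 164, 161, 191 and 150 RPKM at 0 h, 84.9, 66.0, 79.6 and 76.8 RPKM at 4 h and 31.3, 35.2, 38.6 and 29.1 RPKM at 24 h (-2.28, SE 0.09, limma adjusted p = 1.9e-20). Its 19.6 kb domain (chr14:31157300-31176943) had H3K18la over 65.5% in M0 and 58.6% in M1.

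The other 3 were Tmem86a, of ether lipid turnover, from 61.2 ± 4.67 to 0.894 ± 0.126 RPKM, Cerk, the ceramide kinase gene, from 57.8 ± 3.52 to 3.17 ± 0.072 RPKM, and Fblim1, an adhesion adaptor gene, from 27.9 ± 2.4 to 1.83 ± 0.184 RPKM (SD, n = 4). M0 H3K18ac covered 90.6%, 95.5% and 89.2% of their domains. By 24 h Tmem86a stood at 49.8 to 59.3 RPKM and Fblim1 at 22.4 to 31.1 RPKM, ranges that overlapped those of 0 h. The call of Tmem86a at 24 h (-0.19, limma adjusted p = 0.022) was lost without 24h replicate 2 or 3 or 0h replicate 4, which gave -0.16, -0.16 and -0.14. Further genes that fell at 24 h were Atp6v0a1, a proton pump subunit gene, by 1.37 (SE 0.08), Mbnl1, a splicing regulator gene, by 1.35 (SE 0.10), Galc, a lysosomal galactosidase gene, by 1.17 (SE 0.05), and Wdr81, an endosome gene whose domain also holds Mir22, by 1.16 (SE 0.09). H3K18la coverage went from 40.1% to 13.8% in the Atp6v0a1 domain, from 34.1% to 1.95% in that of Mbnl1, from 46.8% to 24.7% in that of Galc and, in the other direction, from 56.6% to 61.1% in that of Wdr81. Zmiz1 and Irf2bp2, of the 12 widest domains, fell by 1.83 (SE 0.13) and 2.08 (SE 0.12) at 4 h, and at 24 h Irf2bp2 had 11.1 to 21.7 RPKM, spanning its 0 h range of 14.3 to 16.3 RPKM.

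**Figure D5:**
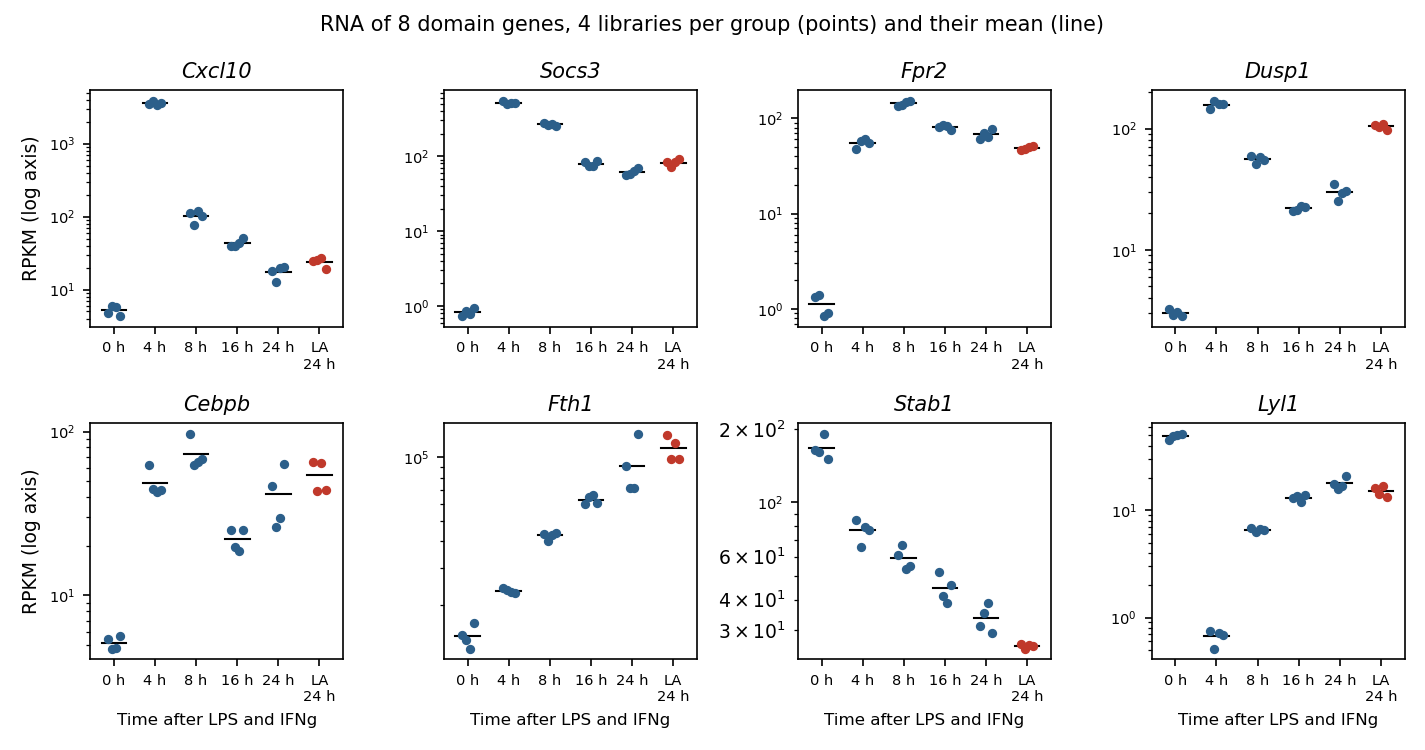
RPKM (y axis, log scale) of 8 domain genes in each library (points) and the group mean (line), by time after LPS and IFNg (x axis), with the LA 24h group in red. Cxcl10 and Socs3 peak at 4 h and stay above 0 h at 24 h, Fpr2 peaks at 8 h with a mean of 143 RPKM, Fth1 climbs to 24 h, Stab1 declines to 24 h, and Lyl1 dips at 4 h.

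Lactic acid was compared at 24 h, LA 24h against 24h. Of the 723 domain genes 296 (40.9%) were higher and 95 (13.1%) lower, against 25.5% and 21.7% of all tested genes, with a median of 0.12 against 0.01. Under the same rescaling domain genes had a median of -0.06 and all genes -0.15, with 157 domain genes higher against 239 lower. Over all 10044 genes then tested, 1038 were higher and 4683 lower. Of the called genes 39.6% were thus higher among domain genes, against 18.1% over all genes. Fitted on the libraries of these groups alone, 177 were higher and 39 lower. In domains of 30 kb or more 55 of 93 genes (59.1%) were higher and 8 lower. By class of M0 coverage, from least to most covered, 43.6%, 46.5%, 42.7%, 39.4% and 36.8% were higher. Under the rescaling 35 genes in domains of 30 kb or more were higher and 16 lower. The shares by class were then 20.5%, 25.3%, 21.3%, 22.5% and 19.2%, and each class had more genes lower than higher, as in the most covered one with 33 higher and 60 lower.

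Dusp1 had the lowest adjusted p of the named genes, going from 34.8, 25.5, 29.4 and 30.6 RPKM to 108, 103, 109 and 97.1 RPKM (1.77, SE 0.07, limma adjusted p = 1.2e-17), with no overlap. Ccrl2, an atypical chemokine receptor gene, went from 10.9, 6.56, 7.78 and 10.6 RPKM to 27.2, 28.6, 26.4 and 27.6 RPKM (1.54, SE 0.11, limma adjusted p = 1.3e-12). Gdf15, a stress-induced cytokine gene, was at 114, 25.1, 42.5 and 120 RPKM without and 213, 271, 267 and 157 RPKM with LA. Its groups did not overlap, but its 24 h libraries fell into high and low values (1.82, SE 0.30, limma adjusted p = 1.5e-05).

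All 9 metabolism and hypoxia genes rose, with a median of 0.45 (5 under the rescaling), led by Slc2a1 (1.07, SE 0.09), Slc7a11, the cystine transporter gene (0.85), and Pfkfb3 (0.82, SE 0.08). Fth1 was at the edge (0.32, adjusted p = 0.048) and lost the call without LA 24h replicate 1 or 3 and without 24h replicate 1, 2 or 3, with values of 0.22 to 0.33. Of the 11 feedback genes 9 rose and of the 7 inflammatory mediators 5 (7 and 4 under the rescaling), among them Ccl3 (1.25) and Il1a (0.80, SE 0.15). Gpr84, a receptor gene for medium-chain fatty acids, fell by 0.78 (SE 0.14), from 6.26, 9.67, 8.46 and 6.67 RPKM to 5.10, 3.14, 4.12 and 3.99 RPKM. Gpr65, a receptor that senses acid, fell by 0.73 (SE 0.08) and Mbnl1 by 0.70 (SE 0.10). Gpr65 shares its domain (chr12:98257366-98271862) with Galc, which fell by 0.35 (SE 0.05). Fpr1 and Fpr2, which share a domain as well, fell by 0.65 (SE 0.14) and 0.46 (SE 0.09).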

How the data were processed

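ChIP-seq libraries (1 per mark and state, chromatin cut with micrococcal nuclease) and 32 stranded mRNA libraries were used, grouped by the labels. Per the submitters' processing notes the tools named include Bowtie2 2.2.6, HISAT2 2.1.0, SAMtools 0.1.19, MACS2 2.2.1, featureCounts 1.5.0-p1 and edgeR, with builds mm10 and GRCm38. The threshold, the control and any scaling of the peak calls are not given in the sources used here. The deposited peak lists hold a fold enrichment (a ratio), a -log10 p, a -log10 q and a score, which the authors' caller set from the -log10 q. The deposited spike-in table gives a count of reads per library and the authors' factors. The deposited RNA table gives RPKM, the authors' log2 fold changes and a p-value per gene, of which only RPKM was used.

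Domains were cut from the lists by width and overlap, and the overlap step was tested on simulated intervals. Gene starts came from RefSeq promoters of GRCm38.p6, which has the coordinates of mm10, and 11177 of 11184 listed genes matched a RefSeq symbol. The 9942 genes that reached 1 RPKM in 4 or more libraries entered the test, run on log2(RPKM + 1) with limma-trend (limma 3.58.1, R 4.3.3), all 32 libraries in 1 model with 24 residual degrees of freedom, Benjamini-Hochberg threshold 0.05. A count test was planned only for a table of raw counts, and this one gives RPKM. Whole reads came back from the RPKM for all 11184 genes (100% of values within 0.05 of a whole number) and fed edgeR 4.0.16 as an alternative, which called 8471, 7657 and 4670 genes at 4 h, 24 h and LA 24h, against 8476, 7679 and 4685. On simulated data with 24 h against 0 h (9345 genes), 200 genes were changed, as many up as down. There limma recovered 100% of genes changed by log2 1 and 93% of those changed by 0.5, with 7 false calls. The median fitted sizes were 0.89 and 0.43. No shift of scaling was simulated and far fewer genes changed than were called here, so the simulation does not give the error rate of these comparisons. Intervals, shares and overlaps used Python 3.11.15 and pandas 2.3.3.

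Named were the 12 widest domains, the 3 narrowest, the 3 just under the limit, and those with the extreme H3K18la and M0 shares. Named genes were those starting in the 12 widest domains, the genes with the largest called changes (6 and 6 at 24 h, 4 and 4 at 4 h, 3 and 3 for LA, mean log2 value of at least 3) and up to 3 per list, plus Gbp5 and Socs1. The members, the 12 lists and the classes were chosen with earlier results of these data known. Alternatives were the pseudocount, the filter, the scaling, a replicate block, fewer libraries, edgeR, width limits, overlap rules and a stricter q.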

Additional observations from a re-analysis of the deposited data

Results flagged for a closer look

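Among 204 groups of 4 libraries of the named genes, 11 held a library whose gap to its nearest neighbour was above Dixon's critical value for its share of the group's range. Chance picks out about 1 in 20 such groups. The libraries of the 24h group that stood apart were replicate 4 each time: Ctss at 3146 RPKM (others 2159 to 2191), Btg1 at 60 (44.4 to 45.3) and Klf2 at 51 (35.3 to 37). In the 4h group replicate 1 stood apart for Cebpb at 62.7 RPKM (42.6 to 44.4) and Fos at 21.1 (19.8 to 19.9). In the 0h group Ccr2 was low in replicate 1 at 9.23 RPKM (13.4 to 14.2), Ccrl2 high in replicate 4 at 5.54 (3.96 to 4.23) and Slc2a1 low in replicate 4 at 14 (18.7 to 19.4). In the LA 24h group Acod1 was low in replicate 2 at 399 RPKM (482 to 485), Ccl12 low in replicate 4 at 256 (276 to 278) and Il1a high in replicate 4 at 15.3 (9.95 to 10.4).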

How the results depend on the processing

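The ChIP-seq values have 1 library per mark and state, so no difference between M0 and M1 peaks has a replicate, and widths and coverage are as called in lists whose threshold is not given in the sources used here. A minimum width of 15 kb left 1194 domains, with a median M0 share of 75.5%, 408 listed genes and 336 of them called at 24 h (243 higher, 93 lower). Peaks of a -log10 q of 5 or more gave a median M0 share of 65.6%. An added choice, made after seeing the data, was H3K18la coverage from peaks of that q. It gave 19.2% (M1) and 20.5% (M0) in the domains and 12.3% and 25.8% in narrower peaks. Counting an H3K18la peak only where it covered 50% or more left 241 domains in M1 and 251 in M0. Linking genes by body in place of start gave 1439 listed genes, 1082 of them called at 24 h (659 higher, 423 lower).

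Scaling to the reads in listed genes gave 215 higher and 367 lower domain genes at 24 h and 157 and 239 with LA. It reversed Btg1 (-0.41) and Capg (-0.13) at 4 h, Irf2bp2 (-0.36) and Pfn1 (-0.03) at 24 h, and Ctsd (-0.17) and Gsn (-0.16) with LA. Fitting only the groups compared called 8520 genes at 4 h (8476 with all groups), 6641 at 24 h (7679) and 2015 with LA (4685). Domain genes higher and lower were then 357 and 170 at 24 h and 177 and 39 with LA. Such fits have fewer residual degrees of freedom and take the spread from those groups alone. The counts with LA thus depend on the spread being shared over all groups. The cause of these and the other changes was not tested. Of 2295 alternatives for single named genes 2207 kept direction and side of the threshold, 59 lost the call, 23 gained it and 6 turned.

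Leaving out 1 library gave 8157 to 8303 genes called at 4 h (8476 with all), 7272 to 7677 at 24 h and 4133 to 5436 with LA. Domain genes higher and lower then ranged over 374 to 380 and 267 to 272 at 4 h, 376 to 398 and 177 to 193 at 24 h (558 to 581 in all), and 257 to 311 and 77 to 117 with LA. Deviations from the group mean had correlations of -0.64 to 0.51 between libraries of the same replicate number. With 4 libraries per group these cannot settle whether the numbers pair the libraries. A replicate block gave 8464, 7655 and 4662 genes called. The count test, edgeR, was planned as the main test only for a table of counts and was run on the recovered reads as an alternative.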
